A study of Mus musculus with 2 samples.

Results

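The transmembrane channel-like (TMC) family of the mouse has 8 genes, Tmc1 to Tmc8, and all 8 were read by named probes on the arrays examined here. They were chosen by gene symbol, with earlier results of these data known, and they account for 12 of 55669 probes and 8 of 20659 named genes. RNA came from whole retina at postnatal day 14. One array held RNA of retina labelled Mef2d KO and the other RNA of wild-type (WT) retina. The arrays were one-colour Agilent arrays, on which labelled RNA binds to spots of oligonucleotide probes and the brightness of a spot reports the amount of a transcript. MEF2D, the product of Mef2d, is a MADS-box transcription factor, and the question of the comparison is what its loss does to gene expression in the retina. The labels used here give neither the mutant allele, nor the strain, nor the number or sex of the animals pooled on an array.

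TMC proteins are membrane proteins that share their overall fold with the anoctamins and the TMEM63 channels. TMC1 and TMC2 form the pore of the mechanotransduction channel of inner ear hair cells, where they work with TMIE, LHFPL5, CIB proteins and the tip link made of PCDH15 and CDH23. TMC6 and TMC8, also named EVER1 and EVER2, lie at one locus. In humans they form a complex with CIB1, and their loss causes epidermodysplasia verruciformis, a susceptibility of the skin to papillomaviruses.

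Each group has 1 array, so the differences below have no replicates behind them and come without p-values. A level is log2 of a probe's signal over its array's 75th percentile. A difference is the level on the array labelled Mef2d KO minus that on the WT array, and ± gives 1 SD from the error that the scanner software estimates for each spot, which leaves out variation between animals. A gene was called apart at 2-fold, a difference of 1 in either direction. Levels were compared between arrays and not between probes, since probes bind with different strength.

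Tmc6 was the member that differed. Its brighter probe, A_51_P354038, had a processed signal of 2686 units on the array labelled Mef2d KO and 605 units on the WT array, which are levels of 1.65 and -0.42. The difference was 2.06 ± 0.20, so Tmc6 was 4.18-fold higher in the retina labelled Mef2d KO. Its other probe, A_55_P2184766, had 1128 units on the array labelled Mef2d KO and 249 units on the WT array. That is a difference of 2.09 ± 0.20, or 4.26-fold. The probes thus gave nearly the same fold at signals that differed on both arrays, and all 4 readings were well above background.

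The other 7 genes were either within 2-fold or too dim to compare. Of the 8 genes, 5 (Tmc2, Tmc4, Tmc6, Tmc7 and Tmc8) were flagged by the scanner software as well above background on both arrays. Tmc5 was read on the WT array only, and Tmc1 and Tmc3 on neither array. Among the 5 genes, 1 was at least 2-fold higher, none was lower by 2-fold or more, and the median difference was 0.041. Among the 16187 genes of the arrays that passed the same filter, 100 (0.618%) were at least 2-fold higher and 281 (1.74%) at least 2-fold lower, with a median difference of -0.0060. Tmc6 is 1 of those 100, and since the family was proposed with the Tmc6 result known, its count is a description that carries no weight as evidence about the family.

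**Figure D1:**
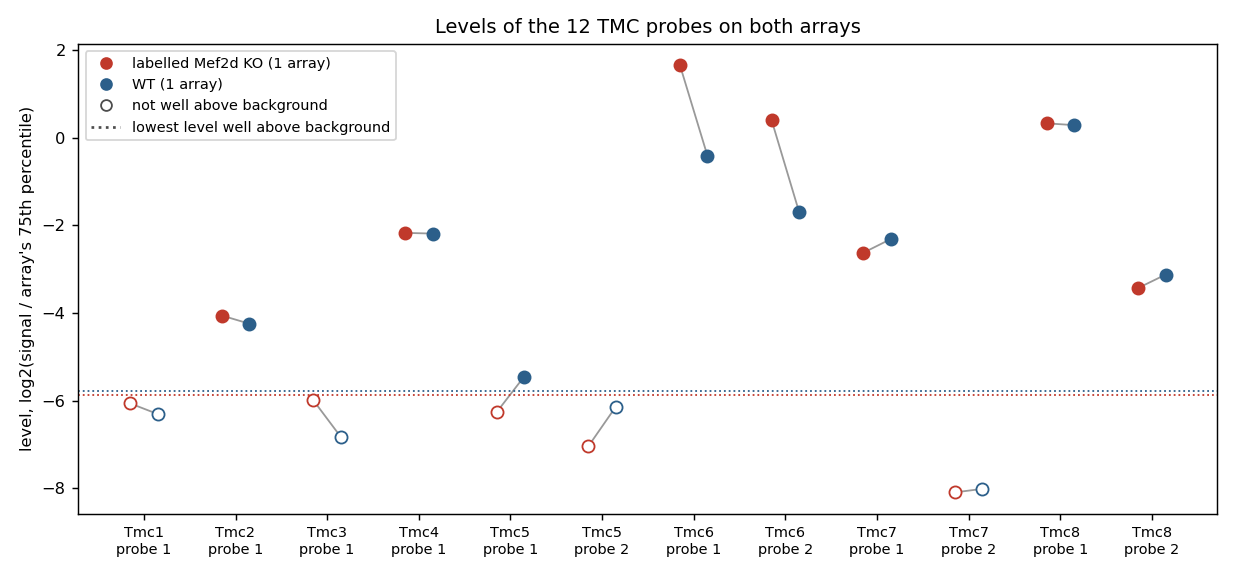
Level of each of the 12 TMC probes (log2 of signal over the array's 75th percentile) on the array labelled Mef2d KO (red, left) and the WT array (blue, right), with open points for readings that were not well above background; probe 1 is the brighter probe of a gene. The Tmc6 probes stand at 1.65 and 0.39 on the array labelled Mef2d KO and at -0.42 and -1.70 on the WT array, while the other genes read on both arrays have nearly level lines.

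The start of Tmc6 and that of Tmc8 are shown because, of these neighbours, only Tmc6 was past 2-fold between the arrays. Both lie on chromosome 11, on opposite strands and pointing away from each other, with annotated starts 1605 bases apart. Each sequence holds 250 bases before the start and 50 after it, from RefSeq on build GRCm38.p6, written 5′ to 3′ along the gene's own strand. Capitals mark the E-box CACGTG, a palindrome and so the same on both strands.
Tmc6 (chr11:117780643-117780942, minus strand): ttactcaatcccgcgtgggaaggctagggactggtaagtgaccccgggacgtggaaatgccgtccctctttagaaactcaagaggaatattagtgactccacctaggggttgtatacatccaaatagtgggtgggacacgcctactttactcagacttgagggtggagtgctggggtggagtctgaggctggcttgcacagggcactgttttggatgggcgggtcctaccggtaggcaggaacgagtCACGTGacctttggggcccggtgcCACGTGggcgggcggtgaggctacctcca
Tmc8 (chr11:117782047-117782346, plus strand): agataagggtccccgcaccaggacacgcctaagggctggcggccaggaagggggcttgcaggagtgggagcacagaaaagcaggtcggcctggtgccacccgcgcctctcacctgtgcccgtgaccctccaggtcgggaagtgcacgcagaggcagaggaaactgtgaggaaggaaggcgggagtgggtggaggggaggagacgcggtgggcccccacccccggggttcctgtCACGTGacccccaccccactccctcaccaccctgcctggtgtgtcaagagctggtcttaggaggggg

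The Tmc6 window holds the E-box 2 times, at bases 248 to 253 and 272 to 277, and the Tmc8 window holds it 1 time, at bases 234 to 239, where base 251 is the annotated start. Of all 32851 promoter windows of this length in the table, 7.15% hold CACGTG and 0.594% hold it 2 or more times. This motif was picked after the sequences were seen. Neither window has a match to the MEF2 consensus, which 3.19% of all windows hold, nor to TAATCC on either strand, the core read by the photoreceptor factor CRX, which 7.06% hold. The GC box GGGCGG, on either strand, occurs 3 times in the Tmc6 window with overlapping matches counted, not in the Tmc8 window, and in 35.7% of all windows. Of the 6 members with a window (Tmc1, Tmc3, Tmc4, Tmc6, Tmc7 and Tmc8), none has a MEF2 or TAATCC match. The windows of Tmc4 and Tmc7 hold 1 GC box each. These are matches of letters in one window and say nothing of whether a factor binds there or elsewhere.

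Tmc8, the gene beside Tmc6, was within 2-fold. Its brighter probe had 1074 units on the array labelled Mef2d KO and 982 units on the WT array, a difference of 0.041 ± 0.20. Its dimmer probe had 79.6 units on the array labelled Mef2d KO and 92.6 units on the WT array, a difference of -0.31 ± 0.22. Both probes were well above background on both arrays, and the first difference was within 1 SD of the scanner error while the second was just beyond it. So the higher Tmc6 signal was not shared by its neighbour. The files give no position of the probes within the transcripts.

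The genes around this locus did not share the Tmc6 difference either. Tnrc6c, an Argonaute-binding scaffold of microRNA silencing on the far side of Tmc6, differed by -0.018 ± 0.20 (0.16 with median scaling). Syngr2, a synaptogyrin of vesicle membranes beyond Tmc8, differed by -0.056 ± 0.20 (0.12 with median scaling). Over the 6 named protein-coding genes before Tmc6, Tmc8, and the 6 after Tmc8, a window chosen after the values were seen, the 13 differences ran between -0.29 and 0.33 with a median of -0.056, and none reached 2-fold. On chromosome 11 as a whole, 8 of 1327 genes (0.603%) were at least 2-fold higher. Mef2d lies on chromosome 3, and no TMC gene does.

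**Figure D2:**
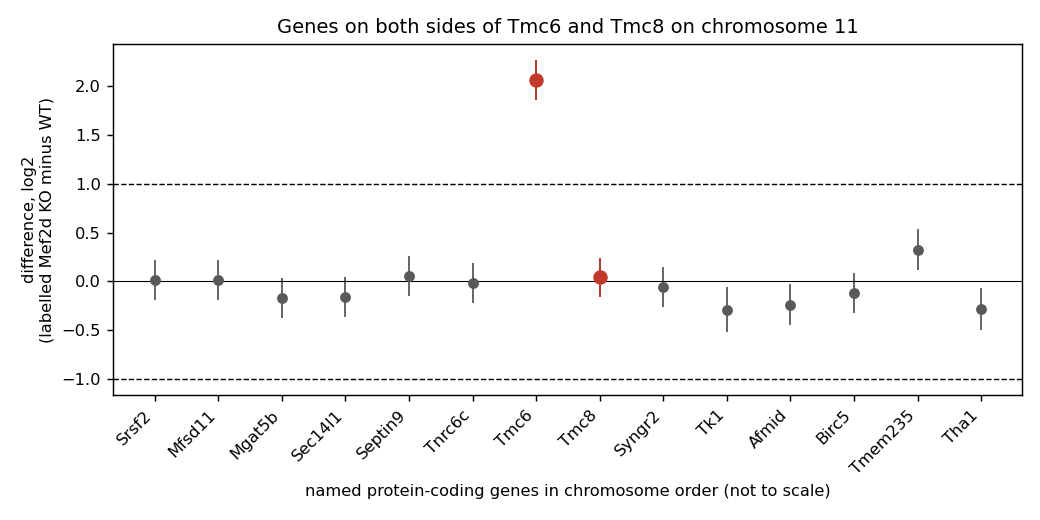
Difference (log2, array labelled Mef2d KO minus WT) of Tmc6, Tmc8 (both red) and the named protein-coding genes around them (grey) in their order along chromosome 11, with bars of 1 SD of the scanner error model and dashed lines at 2-fold. Tmc6 stands at 2.06 and the 13 others lie between -0.29 and 0.33.

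The Tmc6 reading was also present before any correction by the scanner software. The median pixel signal of the brighter probe was 2495.5 on the array labelled Mef2d KO and 627.5 on the WT array, over local backgrounds of 35 and 41. For the dimmer probe it was 1110 on the array labelled Mef2d KO and 299 on the WT array, over 35 and 40. The ratios of signal above local background were 4.19 and 4.15. Spots within 5 rows and columns of the brighter probe gave a median difference of 0.00081 over 73 spots, none of them 2-fold higher. Around the dimmer probe it was -0.032 over 81 spots, again with none 2-fold higher, so the neighbouring spots did not share the higher signal.

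By size, Tmc6 ranked 14th among the 16187 genes from the highest difference down. The genes on either side of it in that ranking were Kcng1, a modifier subunit of potassium channels (2.10 ± 0.21), and Cr2, a complement receptor (2.06 ± 0.21). As a mean over each gene's probes, Kcng1 came to 1.39 and Cr2 to 1.75. With normexp background they came to 1.57 and 1.64. Likeness on 2 arrays rests on 1 difference per gene, so this says nothing of shared control. At 4-fold or more, 15 of 16187 genes (0.0927%) were higher. Of the 16 genes at least 2-fold higher that had 2 or more probes well above background on both arrays, 7 were 2-fold higher by every such probe. Tmc6 was the 1 gene of the 16 that was 4-fold higher by every such probe, a mark just under its 4.18-fold and 4.26-fold. With normexp background its differences were 1.89 and 1.80, under 4-fold. The spread between the Tmc6 probes was 0.029, against a median of 0.55 over the 16 genes and of 0.13 over all 4348 genes with 2 or more such probes. That spread is smaller than 1 SD of the scanner error (0.20), so it is no measure of precision. Tmc6 was known to differ when the family was chosen, so its rank and these counts describe it and carry no weight as evidence.

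**Figure D3:**
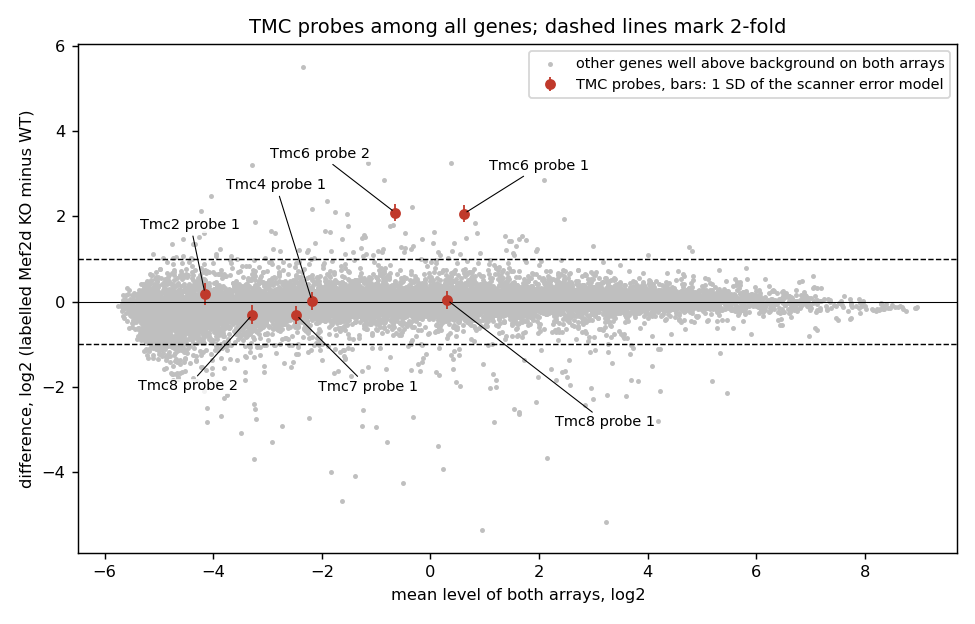
Difference (log2, array labelled Mef2d KO minus WT) against mean level for the 16187 genes well above background on both (grey) and for the 7 TMC probes well above background on both (red, bars of 1 SD of the scanner error model), with dashed lines at 2-fold. The Tmc6 probes lie at 2.06 and 2.09 and the other 5 TMC probes between -0.31 and 0.19.

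TMC6 and TMC8 partners moved little. Cib1, which encodes the calcium- and integrin-binding partner, differed by 0.21 ± 0.20, and Slc30a1, which encodes the zinc transporter ZnT1 that binds the human complex, by 0.33 ± 0.20. Neither of these 2 genes reached 2-fold, against 381 of 16187 genes (2.35%) past 2-fold in either direction.

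Tmc6 and Tmc8 are also expressed in lymphocytes, so immune markers are given beside them. Of the 17 lymphocyte and microglia markers, 13 were well above background on both arrays, and none of these 13 was 2-fold apart. The summed level of the 10 lymphocyte markers, in multiples of each array's 75th percentile, was 1.40 on the array labelled Mef2d KO and 1.50 on the WT array. Of these markers, Cd2, Cd3d and Ms4a1 were not well above background on either array, and Cd3g was so on the WT array alone. Cd3e differed by -0.17 ± 0.20 (0.0032 with median scaling) and Lck, a T cell kinase, by 0.21 ± 0.20. The 7 microglia markers summed to 10.3 on the array labelled Mef2d KO and 8.45 on the WT array, a ratio of 1.22. Their 7 differences ran from -0.21 for P2ry12 to 0.54 for C1qa, with a median of 0.26. Such sums weigh genes with bright probes most, and Csf1r had the highest level of the 7 on the array labelled Mef2d KO. The median is also the value of its brightest probe. The other Csf1r probes gave -0.17 and 0.086, and the mean over its probes was 0.062. The part of immune cells in the Tmc6 difference was not tested. In whole tissue, more cells of a type and more RNA per cell cannot be told apart.

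Tmc2, a pore subunit in hair cells, was dim but read on both arrays. It had 51.5 units on the array labelled Mef2d KO and 42.6 units on the WT array, a difference of 0.19 ± 0.26. Its unprocessed median signal was 90 on each array, over local backgrounds of 35 on the array labelled Mef2d KO and 36.5 on the WT array. The difference was 0.47 with quantile normalization and 0.53 with cyclic loess, beyond 1 SD of the scanner error and within 2-fold.

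Tmc1, the pore subunit that hair cells keep after hearing onset, was not well above background on either array. Its probe had 12.8 units on the array labelled Mef2d KO and 10.2 units on the WT array. The lowest signals counted as well above background were 14.7 units on the array labelled Mef2d KO and 14.9 units on the WT array, so no fold is given. The measured difference was 0.24 ± 0.67. Hair cell markers were in part readable in these retinas. Of 6 such genes, Otof, Pou4f3, Loxhd1 and Myo15 were well above background on both arrays with differences between -0.51 and -0.077, and Atoh1 and Strc were so on neither. Each gene stands there with its brightest probe. Another Loxhd1 probe, read on the WT array only, was lower on the array labelled Mef2d KO by at least 2.63-fold. The remaining Loxhd1 probe, at -1.63 ± 1.46, was too dim to read on either array.

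Of the partners of TMC1 and TMC2, Pcdh15 alone was past 2-fold. Of 10 listed genes 8 were well above background on both arrays, with 1 at least 2-fold lower and none at least 2-fold higher. Their median difference was -0.030, against -0.0060 over all genes. Pcdh15, a protocadherin of the tip link that photoreceptors also use, had 6 probes, and its brightest had 258 units on the array labelled Mef2d KO and 3692 units on the WT array. That difference was -3.93 ± 0.20. Its 3 other probes read on both arrays gave differences of -3.63, -1.38 and -2.17. The remaining 2, not well above background on the array labelled Mef2d KO, were lower there by at least 20.3-fold and at least 3.45-fold, so every probe was past 2-fold in the same direction.

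The channel's other partners were within 2-fold where they could be read. Tmie, an essential channel subunit, differed by 0.18 ± 0.21, and Lhfpl5, a tetraspan subunit, by -0.023 ± 0.20 (0.16 with median scaling). Cib2, a calcium-binding partner of TMC1 and TMC2 that the retina also expresses, differed by -0.036 ± 0.20 (0.14 with median scaling). Tomt, which encodes a protein needed to bring TMC1 to the hair bundle, differed by 0.25 ± 0.32 (0.68 with quantile normalization and 0.67 with cyclic loess). Myo7a, a myosin of hair bundles and pigment epithelium, differed by 0.082 ± 0.20. Ush1g, which encodes a scaffold of the tip link complex, differed by -0.24 ± 0.20. Ush1c, which encodes another, differed by -0.048 ± 0.21 (0.13 with median scaling, 0.051 with quantile normalization and 0.059 with cyclic loess). The other Ush1c probe, also well above background on both arrays, gave -0.58 ± 0.26, and the mean over its probes was -0.31. Cdh23, the cadherin that pairs with PCDH15, and Cib3 were not well above background on either array.

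**Figure D4:**
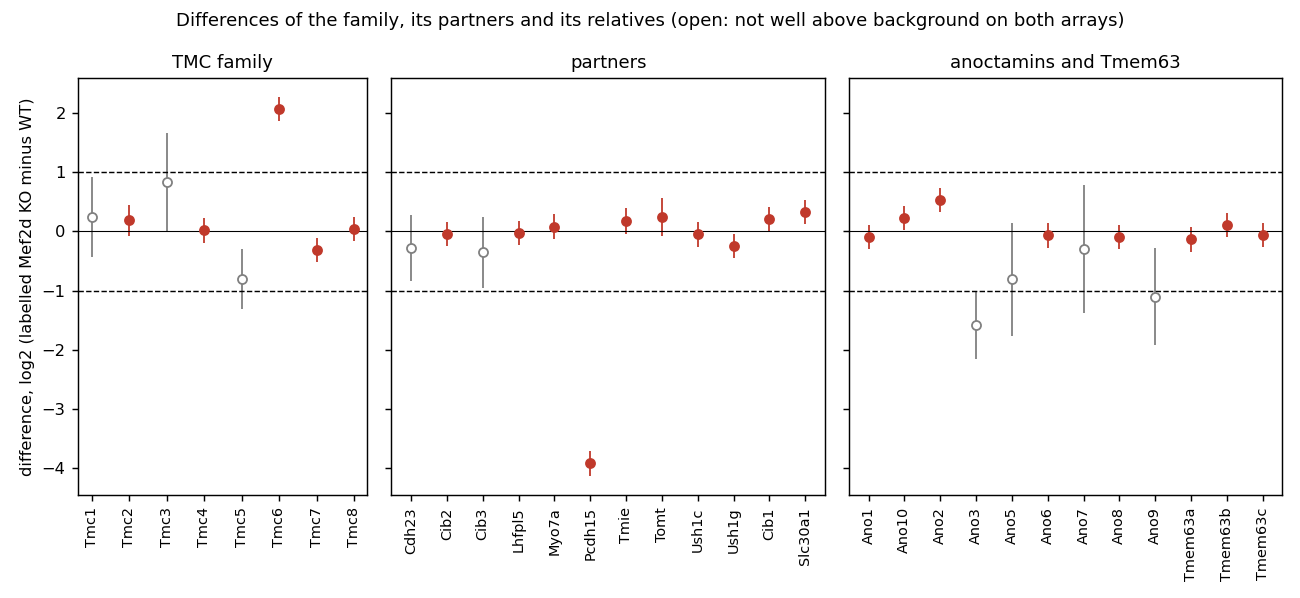
Difference (log2, array labelled Mef2d KO minus WT) of the TMC genes, of the listed partners and of the anoctamins and Tmem63 genes, each by its brightest probe, with bars of 1 SD of the scanner error model; open points were not well above background on both arrays, and dashed lines mark 2-fold. Tmc6 at 2.06 and Pcdh15 at -3.93 are the filled points beyond 2-fold.

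The remaining members gave no difference past 2-fold. Tmc4, described in mice as a chloride channel of taste cells, had 190 units on the array labelled Mef2d KO and 177 units on the WT array. Its difference was 0.016 ± 0.21 (-0.00068 with the 75th percentile taken over probes well above background). The brighter Tmc7 probe had 139 units on the array labelled Mef2d KO and 162 units on the WT array, a difference of -0.31 ± 0.21. The other Tmc7 probe, at 3.15 units on the array labelled Mef2d KO and 3.13 units on the WT array, was near the floor of both arrays. Coq7, a gene of ubiquinone synthesis next to Tmc7, differed by 0.14 ± 0.20, and Gde1, a phosphodiesterase gene next to Tmc5, by -0.028 ± 0.20 (0.15 with median scaling and 0.012 with normexp background).

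Tmc5 and Tmc3 were near the lowest signals that count as well above background. The brighter Tmc5 probe had 11.2 units on the array labelled Mef2d KO, not well above background, and 18.5 units on the WT array, just above it. Against the lowest level well above background, as scaled here, Tmc5 was lower by at least 1.34-fold on the array labelled Mef2d KO. The measured difference of this brighter probe was -0.81 ± 0.51. It was -0.13 with quantile normalization and -0.15 with normexp background, so the bound depends on the processing. Among the 922 genes read on the WT array only, 176 (19.1%) had such a bound of at least 2-fold. Its other probe had 6.52 units on the array labelled Mef2d KO and 11.5 units on the WT array, not well above background on either. Tmc3 had 13.5 units on the array labelled Mef2d KO and 7.10 units on the WT array, also not well above background on either. Its measured difference of 0.84 ± 0.83 moved between 0.20 and 1.68 over the ways of scaling, so neither its size nor a call can be read.

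**Figure D5:**
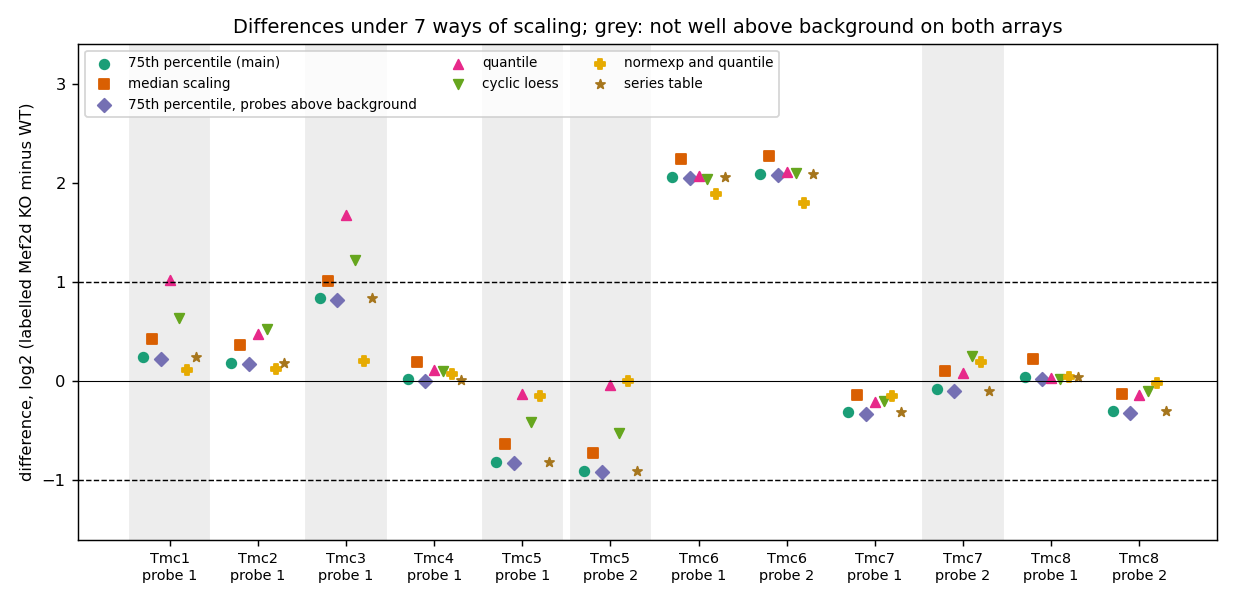
Difference (log2, array labelled Mef2d KO minus WT) of each TMC probe under 7 ways of scaling or correcting the values, with dashed lines at 2-fold and grey bands for probes not well above background on both arrays. The Tmc6 probes stay between 1.80 and 2.27, while the Tmc1 and Tmc3 probes cross the 2-fold line in the grey bands only.

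Relatives of the family stayed within 2-fold where they could be read on both arrays. Of 13 listed anoctamin and Tmem63 genes 12 had a named probe, and 8 were well above background on both arrays. None of the 8 was 2-fold apart, and their median difference was -0.062. Ano2, which encodes a calcium-activated chloride channel of photoreceptor terminals, had the highest difference (0.53 ± 0.20). Tmem63a, which encodes a stretch-gated channel, had the lowest of the 8 (-0.13 ± 0.21, and 0.046 with median scaling and 0.020 with normexp background). Ano3 was read on the WT array only, which bounds it at 1.98-fold lower or more, with a difference of -0.13 under normexp background.

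Facts of the whole arrays bear on all of these values. The share of the 59305 probe spots read well above background was 69.6% on the array labelled Mef2d KO and 75.5% on the WT array, and both arrays came from 1 slide. Mef2d itself differed by 0.43 ± 0.20, with no source here saying whether its probes lie in the deleted part, so it does not check the label. Xist, the RNA of the inactive X chromosome, was by its bound at least 51.9-fold higher there than on the WT array, so genotype and sex makeup cannot be told apart. Of 137 genes read on that array only, 6 (4.38%) had a bound of at least 2-fold. All 5 markers each of rods, cones and bipolar cells were well above background on both arrays. Lens markers were mostly lower on the array labelled Mef2d KO. Of the 7, 6 were read on both arrays and 5 of these were at least 2-fold lower, against 281 of 16187 genes (1.74%). Bfsp1 differed by 0.30. Lim2, read on the WT array only, was lower by at least 6.60-fold. The lens list summed to 34.7 on the array labelled Mef2d KO and 153 on the WT array. Of the 7 epithelial markers, 6 were read on both arrays and none of these was 2-fold apart, against 2.35% of 16187 genes. By direction, 5 of the 6 were lower on the array labelled Mef2d KO and 1 higher, from -0.68 to 0.44 with a median of -0.34. The higher gene, Krt5, had another probe at -1.33 ± 0.82, not well above background on either array.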

How the data were processed

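Per the labels' protocols, total RNA of retina was amplified and Cy3-labelled with an Agilent one-color kit. Per the file headers, the authors extracted spot intensity with Agilent Feature Extraction 10.10.1.1, whose processed signal has background and a spatial trend removed. Its other columns are flags of 0 or 1 per spot, per the file headers. The series table deposited by the authors repeats these intensities times 1 constant per array (1.76 for the array labelled Mef2d KO and 1.88 for WT), linear and not centred, with column medians of 136.6 and 155.1; no source used here says how the constants were set.

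Processed signals were divided by each array's 75th percentile (858 on the array labelled Mef2d KO and 807 on WT) over 59305 probe spots and put on the log2 scale. Control spots and outlier-flagged spots (126 and 106) were left out, and spots of 1 probe were averaged. Probes were named by RefSeq accession through the GRCm38.p6 gene table: 27231 of 55669 (48.9%) matched, covering 20659 genes. The array design names build mm9, so no gene coordinates were taken beyond gene order and the printed promoter windows. The brightest probe stood for a gene. A probe counted as well above background if at least 0.5 of its spots were flagged so.

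All 8 members, their known partners, the anoctamin and Tmem63 genes, the nearest named gene on each side of a member and the genes ranked next to Tmc6 are named by rule. Members and lists were chosen with earlier results of these data known. Marker lists covered rods, cones, bipolar cells, Mueller glia, amacrine and ganglion cells, lymphocytes, microglia, epithelium, hair cells and lens. The number of arrays limits the precision. Where a probe had replicate spots (432 probes), their differences had a median SD of 0.082 in all, 0.061 for mean levels over -3 and 0.38 for the rest. The calling of genes at 2-fold was tested on 1 simulated pair of arrays. Tools were R 4.3.3 with limma 3.58.1, Python 3.11.15, numpy 2.4.6, pandas 2.3.3 and matplotlib 3.10.9.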

Additional observations from a re-analysis of the deposited data

How the results depend on the processing

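Values were recomputed with median scaling, with the 75th percentile of probes well above background only, quantile normalization, cyclic loess, normexp background (offset 50, on median spot and background signals, since the files hold no mean spot signal) with quantile normalization, the deposited series table, a mean across each gene's probes and no filter on dim probes. The Tmc6 probes kept their direction under all 8, between 1.89 and 2.24 for the brighter and 1.80 and 2.27 for the dimmer. Normexp background put the brighter at 3.71-fold and the dimmer at 3.48-fold, and none of the 8 took them under 2-fold. The count of members at least 2-fold higher stayed 1 and that of lower ones 0. Without a filter on dim probes, 2 anoctamin genes, Ano3 (-1.59) and Ano9 (-1.10), were at least 2-fold lower, against 0 with it, because genes not well above background then count. Under median scaling the median over all genes was 0.17, and directions there are read relative to it. Of all genes past 2-fold, 281 were lower and 100 higher (73.8% lower). The share of lower genes was 53.0% with median scaling (170 lower, 151 higher), 51.2% with quantile normalization (164 and 156), 51.3% with cyclic loess (162 and 154), 60.1% with normexp background (95 and 63) and 88.5% without a filter (1738 and 225). Dim members moved most: Tmc1 came to 1.02 and Tmc3 to 1.68 with quantile normalization, neither being well above background on either array, and the dimmer Tmc5 probe to 0.0053 with normexp background, against -0.90. The dimmer Tmc7 probe turned positive in 4 alternatives, at most to 0.26. Of 416 values of single genes and probes under an alternative, 27 moved by more than the scanner error. No paired analysis was possible because each group has 1 array, and no array could be left out.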

Other observations

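Among other cell types of the retina, the 4 Mueller glia markers differed by -0.18 to -0.13 and the 5 bipolar markers by -0.34 to -0.11, all within 2-fold. The 4 ganglion cell markers differed by -0.053 to 0.28 and the 4 amacrine markers by -0.22 to 0.12. Of the 5 cone markers, Arr3, the cone arrestin (-5.36), and Pde6h, which encodes a cone phosphodiesterase inhibitor (-2.42), were past 2-fold, while the 5 rod markers lay between -0.43 and 0.38. The nearest named genes of the other members were within 2-fold. Aldh1a7, an aldehyde dehydrogenase gene beside Tmc1, differed by -0.51 ± 0.20, and Mex3b, which encodes an RNA-binding protein, beside Tmc3 by 0.52 ± 0.20. On their other sides, Zfand5 beside Tmc1 differed by -0.20 ± 0.20 and Stard5 beside Tmc3 by -0.10 ± 0.24 (0.19 with cyclic loess). Beside Tmc2, Snrpb differed by 0.22 ± 0.20 and Nop56 by 0.013 ± 0.20 (-0.0082 with cyclic loess). Beside Tmc4, Leng1 differed by 0.099 ± 0.20 and Mboat7 by 0.042 ± 0.20.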
